A study of Homo sapiens with 6 samples.

Results

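Small nucleolar RNA (snoRNA) host genes are genes whose introns carry snoRNAs, and 10 noncoding members of this class were followed here: GAS5, SNHG1, SNHG5, SNHG6, SNHG7, SNHG8, SNHG12, SNHG15, SNHG16 and SNHG29. They were taken from a list of symbols, matched to gene IDs, and make up 10 of the 60660 gene IDs in the data. All 10 were measured in every library and passed the filter on low values. RNA-seq was done on the established cell line OCI-AML3, from a human acute myeloid leukaemia, in 3 libraries overexpressing SLC2A3 and 3 libraries carrying the empty vector, which the titles call pLenti. SLC2A3 encodes the glucose transporter GLUT3. Both groups received 250 µM vitamin C, and untreated cells are not analysed here. The labels do not say whether the lines were clones or pools, nor whether each replicate was a culture of its own. The p-values therefore reflect the spread among the 6 libraries alone, and that spread may be technical.

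A snoRNA host gene is transcribed and spliced like a messenger RNA gene, and its snoRNAs are cut from the excised introns. Box C/D snoRNAs guide ribose methylation and box H/ACA snoRNAs guide pseudouridine formation, mostly on ribosomal RNA. Many of the host genes begin their transcripts with a pyrimidine tract, as the messenger RNAs of ribosomal proteins do, and the spliced exons of several, GAS5 among them, are degraded by nonsense-mediated decay when they are translated. A gene-level value in RNA-seq therefore reports mainly the spliced exons, not the snoRNAs.

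A pyrimidine tract opened some annotated transcripts of 8 of the 10 members. A start was counted when the first base was C and the next 4 or more were each C or T, read on the transcribed strand of the GENCODE 29 transcripts. It was found in 26 of 156 annotated transcripts of the members (16.67%) and in 4979 of all 206694 transcripts (2.409%). GAS5 had 6 such transcripts of 29, SNHG29 had 6 of 30, SNHG12 had 4 of 17, SNHG6 had 3 of 5, SNHG5 had 3 of 23, SNHG16 had 2 of 8, SNHG8 had 1 of 5 and SNHG1 had 1 of 25. SNHG7, with 4 transcripts, and SNHG15, with 10, had none annotated. Transcripts of a gene that share a start were each counted, so these are not counts or shares of distinct starts. Among starts that open with a pyrimidine tract, the most shared one belonged to 6 annotated transcripts of GAS5, 5 of SNHG29 and 3 of SNHG5. It belonged to 2 of SNHG16, 2 of SNHG12 and 1 of SNHG8, and need not be a gene's most shared start. Its first 30 bases are given for these 6 members to let the tracts be compared, with the opening pyrimidine run in capitals (GRCh38). Those of SNHG1 and SNHG6 are not shown. They lie at chr1:173867960-173867989 on the minus strand for GAS5, chr17:76557769-76557798 on the plus strand for SNHG16, chr6:85678704-85678733 on the minus strand for SNHG5, chr4:118278758-118278787 on the plus strand for SNHG8 and chr1:28581844-28581873 on the minus strand for SNHG12. The SNHG29 start, on the plus strand of chromosome 17, runs across a splice junction.
GAS5: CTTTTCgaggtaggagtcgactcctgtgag
SNHG16: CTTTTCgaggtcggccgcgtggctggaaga
SNHG29: CTTTTCattcccgttgttatggagggccac
SNHG5: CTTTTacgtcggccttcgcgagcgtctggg
SNHG8: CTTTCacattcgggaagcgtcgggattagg
SNHG12: CCTTTCTCCCCgccgcattcccggtgtcga
GAS5 and SNHG16 were identical over their first 11 bases, and GAS5 and SNHG29 over their first 6. GAS5 shared only its first 5 bases with SNHG5, 4 with SNHG8 and 1 with SNHG12. These are annotated starts. The gene-level values do not tell which of them the cells used.

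The members differ in what their introns hold. RefSeq annotation placed 37 snoRNA entries inside them, of which 28 were named as box C/D, 8 as box H/ACA and 1 had no class in its name. GAS5 held 11 (10 box C/D and 1 box H/ACA) and SNHG1 held 9 (8 box C/D and 1 without a class). SNHG16 and SNHG29 held 3 box C/D snoRNAs each, SNHG5 held 2 and SNHG6 held 1. SNHG12 held 1 box C/D and 3 box H/ACA snoRNAs. SNHG7 held 2 box H/ACA snoRNAs, and SNHG8 and SNHG15 held 1 each. Examples of both classes are given because the class sets the members apart. The C box (TGATGA) and D box (CTGA) of the box C/D snoRNAs and the ACA of the box H/ACA snoRNA are in capitals. The positions, from GENCODE 29 on GRCh38, are chr17:16440036-16440106 (plus) for SNORD49A, chr17:16439505-16439576 (plus) for SNORD49B, chr6:85677589-85677658 (minus) for SNORD50B, chr17:76561109-76561192 (plus) for SNORD1B and chr4:118279190-118279320 (plus) for SNORA24.
SNORD49A in SNHG29: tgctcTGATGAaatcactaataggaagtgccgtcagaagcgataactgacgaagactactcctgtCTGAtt
SNORD49B in SNHG29: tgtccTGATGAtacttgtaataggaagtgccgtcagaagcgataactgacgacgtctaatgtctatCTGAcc
SNORD50B in SNHG5: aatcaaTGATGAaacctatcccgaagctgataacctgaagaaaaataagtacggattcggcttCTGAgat
SNORD1B in SNHG16: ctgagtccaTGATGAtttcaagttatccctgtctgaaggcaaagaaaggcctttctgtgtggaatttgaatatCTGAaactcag
SNORA24 in SNHG8: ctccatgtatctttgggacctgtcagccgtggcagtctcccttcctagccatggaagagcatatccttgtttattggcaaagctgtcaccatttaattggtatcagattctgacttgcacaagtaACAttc
SNORD49A and SNORD49B, which lie next to each other in SNHG29, share an unbroken stretch of 35 bases.

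Values below are normalised reads, the read counts of a gene divided by 1 factor per library. The libraries held between 31054462 and 35770556 reads on genes, and the factors were 0.936 to 1.08. SLC2A3 stood at 4056, 3716 and 4054 normalised reads in the SLC2A3 libraries, against 1194, 1183 and 1257 in the empty vector libraries, a log2 fold change of 1.70 (limma adjusted p = 7.95e-18). All 16 myeloid leukaemia markers examined averaged at least 10 normalised reads. The T cell genes CD3D and CD3E, the B cell gene MS4A1 and the globin genes HBB and HBA1 were listed at 0 in every library. Their lists as a whole had reads. The 6 T and NK cell markers summed to 180.15 to 211.46 with SLC2A3, against 170.20 to 200.02 with empty vector. The 5 B cell markers summed to 154.86 to 214.80 with SLC2A3, against 211.25 to 267.03 with empty vector. The 5 erythroid markers summed to 15.34 to 22.29 with SLC2A3, against 12.01 to 26.48 with empty vector. The 4 megakaryocyte markers summed to 209.05 to 292.50 with SLC2A3, against 227.15 to 274.03 with empty vector. None on these lists was called changed. The summed level of the myeloid markers was 177924 to 183415 normalised reads in the SLC2A3 libraries, against 163057 to 166157 in the empty vector libraries, and 1 of the 16, the granule protease gene PRTN3, was called changed. The summed level of 8 epithelial, fibroblast and kidney line markers, none of them called changed, was 81.7 to 102 in the SLC2A3 libraries, against 48.1 to 65.0 in the empty vector libraries. The part of these differences in the results was not tested.

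No host gene of the 10 passed the threshold for a change with SLC2A3 overexpression. Means were higher in the SLC2A3 libraries for 8 members, by 3.28% to 10.4%, and lower for 2, with differences of -5.04% for SNHG7 and -4.51% for SNHG12. The 3 libraries of one group stood wholly above those of the other for 5 members, GAS5, SNHG8, SNHG6, SNHG1 and SNHG29, each higher with SLC2A3. The test was limma-trend on log2(normalised reads + 1) over 28015 genes, with Benjamini-Hochberg adjustment over all of them and a threshold of 0.05. Against 0 of 10 members called, 0.692% of all tested genes were called higher and 0.8% lower. Unadjusted p was under 0.05 for 3 members, GAS5, SNHG8 and SNHG6 (30%), as it was for 11.8% of all tested genes and 26.5% of those with a mean of at least 1000 normalised reads. Other tools called more. GAS5 alone was called higher by edgeR's quasi-likelihood test (1.53% of genes called higher with TMM scaling and 1.59% with RLE scaling), by limma-voom (1.51%) and by limma-trend on genes with at least 50 normalised reads in 3 libraries (2.41%). DESeq2 called 2 members higher, GAS5 and SNHG8 (3.49%). Groups that did not overlap, with SLC2A3 higher, were found for 8.04% of all tested genes and for 12.7% of the 5894 with a mean of at least 1000 normalised reads, the range in which every member lies. Groups apart in the other direction were found for none of the members, against 8.27% of all tested genes and 17.3% of those with such a mean.

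**Figure D1:**
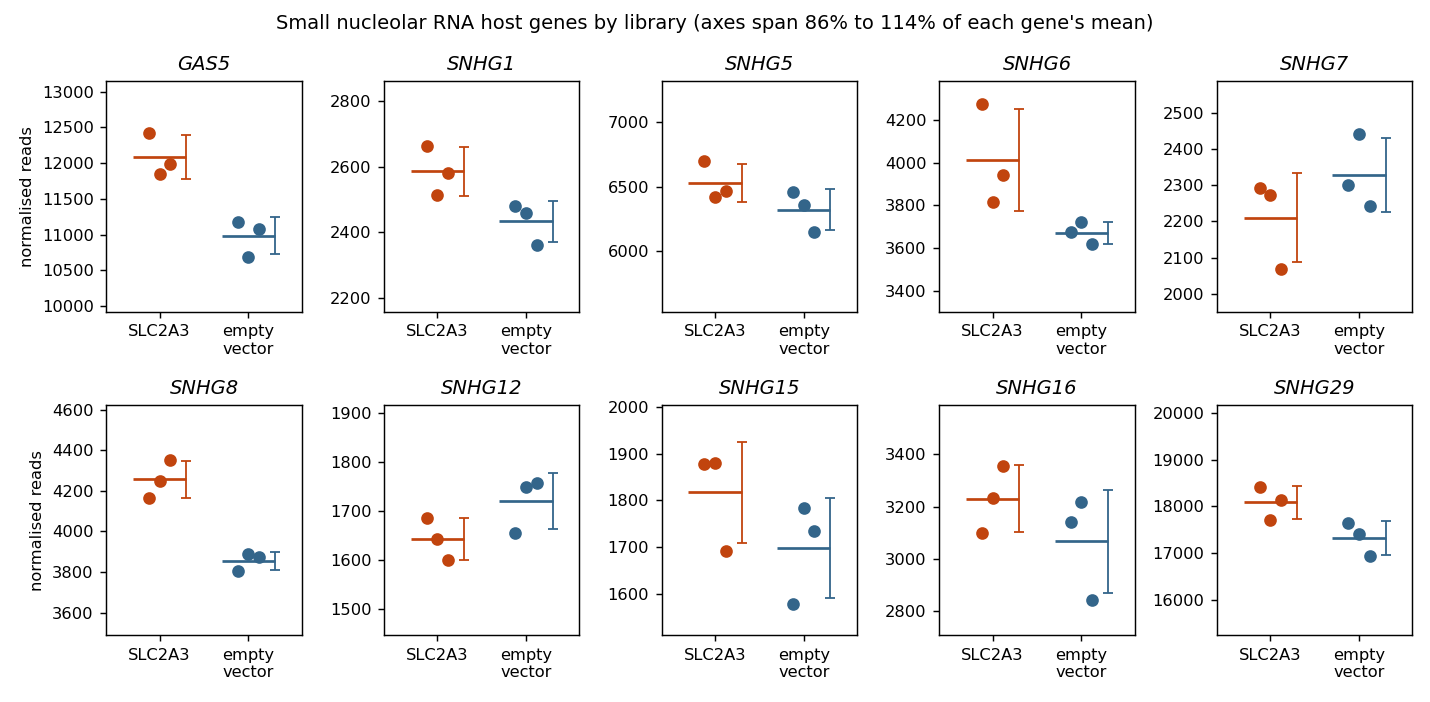
Normalised reads of each snoRNA host gene in the 3 SLC2A3 libraries and the 3 empty vector libraries. Points are libraries, horizontal lines are means, bars are SD, and each vertical axis covers a narrow range around the gene's mean and does not start at 0. The groups do not overlap for GAS5, SNHG1, SNHG6, SNHG8 and SNHG29.

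GAS5 (ENSG00000234741, chr1:173863900-173868882, minus strand), first isolated from growth-arrested mouse cells, carries the most snoRNAs of the 10. It had 12425, 11846 and 11984 normalised reads in the SLC2A3 libraries, against 11182, 10689 and 11081 in the empty vector libraries. Every SLC2A3 library was above every empty vector library. The means were 12085 ± 303 with SLC2A3 and 10984 ± 260 with empty vector (SD, n = 3 each), and the log2 fold change was 0.14 (SE 0.040). Its limma p was 0.00169 and its adjusted p 0.0839. The adjusted p ran from 0.00503 (DESeq2) to 0.231 over the 18 alternatives tried, and 5 of them called it. In bulk RNA, a change in the mix of cells and a change in RNA per cell cannot be told apart.

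SNHG1 (chr11:62851988-62855914, minus strand), the host of SNORD22 and SNORD25 to SNORD31, had 2663, 2514 and 2579 normalised reads with SLC2A3, against 2480, 2458 and 2362 with empty vector. The groups did not overlap, but the lowest SLC2A3 library stood only 34.1 normalised reads above the highest empty vector library. Its log2 fold change was 0.09 (95% interval -0.02 to 0.20, limma adjusted p = 0.573).

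SNHG5 (chr6:85660950-85678748, minus strand), first described as the U50 host gene at a lymphoma translocation breakpoint, had 6696, 6416 and 6468 normalised reads with SLC2A3, against 6459, 6356 and 6144 with empty vector. The groups overlapped by 1 empty vector library. Of the 8 members with a higher mean it had the smallest difference with all libraries kept, a log2 fold change of 0.05 (95% interval -0.04 to 0.14, limma adjusted p = 0.771). It was 0.03 both without empty vector replicate 3 and without SLC2A3 replicate 1. It was 0.06 both without empty vector replicate 1 and without SLC2A3 replicate 2.

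SNHG6, on chromosome 8 and the host of SNORD87, had 4274, 3818 and 3943 normalised reads with SLC2A3, against 3678, 3720 and 3619 with empty vector. The groups did not overlap, and replicate 1 of the SLC2A3 group stood well above the other libraries. Means were 4012 ± 236 with SLC2A3 and 3673 ± 50.8 with empty vector (SD, n = 3 each), and the log2 fold change was 0.13 (SE 0.051). Its limma p was 0.0192 and its adjusted p 0.280. Without that library the log2 fold change was 0.08 (limma adjusted p = 0.574), and without SLC2A3 replicate 2 it was 0.16 (limma adjusted p = 0.182).

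SNHG16 (chr17:76557766-76565348, plus strand), the host of the SNORD1 snoRNAs, had 3100, 3234 and 3356 normalised reads with SLC2A3, against 3140, 3217 and 2844 with empty vector. The groups overlapped, and empty vector replicate 3 was low. The log2 fold change was 0.08 (95% interval -0.04 to 0.19, limma adjusted p = 0.671). It was 0.02 without empty vector replicate 3 and 0.05 without SLC2A3 replicate 3. It was 0.10 without SLC2A3 replicate 1 and 0.11 without empty vector replicate 2.

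SNHG29 (chr17:16438822-16478678, plus strand), which GENCODE 29 lists as LRRC75A-AS1, had the most normalised reads of the 10. It had 18422, 17706 and 18136 with SLC2A3, against 17643, 17406 and 16935 with empty vector. The groups did not overlap, with a gap of 62.9 normalised reads. The log2 fold change was 0.06 (95% interval -0.01 to 0.14, limma adjusted p = 0.560).

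Among the 4 members whose named snoRNAs are all or mostly box H/ACA, SNHG8 and SNHG15 had a higher mean with SLC2A3 and SNHG7 and SNHG12 a lower one. SNHG8 (chr4:118278709-118279823, plus strand), the host of SNORA24, had 4167, 4251 and 4351 normalised reads with SLC2A3, against 3806, 3889 and 3873 with empty vector. Its groups were far apart relative to their spread, at 4256 ± 92.3 with SLC2A3 and 3856 ± 43.8 with empty vector (SD, n = 3 each). The log2 fold change of 0.14 (SE 0.047) was the largest of the 10 and had a limma p of 0.00528 and an adjusted p of 0.152. The adjusted p ran from 0.0257 with DESeq2 to 0.400 over the alternatives.

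SNHG15 (chr7:44983023-44986961, minus strand), the host of SNORA9, had 1879, 1880 and 1692 normalised reads with SLC2A3, against 1579, 1783 and 1735 with empty vector. The groups overlapped, since SLC2A3 replicate 3 lay below 2 of the empty vector libraries. The log2 fold change was 0.10 (95% interval -0.03 to 0.23, limma adjusted p = 0.616). It was 0.045 without empty vector replicate 1 and 0.15 without SLC2A3 replicate 3.

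SNHG7 (chr9:136721366-136728184, minus strand), the host of SNORA17A and SNORA17B, was one of the 2 members with a lower mean. It had 2291, 2272 and 2069 normalised reads with SLC2A3, against 2300, 2440 and 2243 with empty vector. The groups overlapped, and the log2 fold change was -0.08 (95% interval -0.19 to 0.04, limma adjusted p = 0.696). It was -0.03 without SLC2A3 replicate 3 and -0.04 without empty vector replicate 2. It was -0.10 both without SLC2A3 replicate 1 and without empty vector replicate 3. SNHG12 (chr1:28578538-28583132, minus strand), the host of SNORD99 and 3 box H/ACA snoRNAs, had 1686, 1644 and 1600 normalised reads with SLC2A3, against 1655, 1750 and 1757 with empty vector. Empty vector replicate 1 lay among the SLC2A3 libraries. The log2 fold change was -0.07 (95% interval -0.19 to 0.06, limma adjusted p = 0.757).

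**Figure D2:**
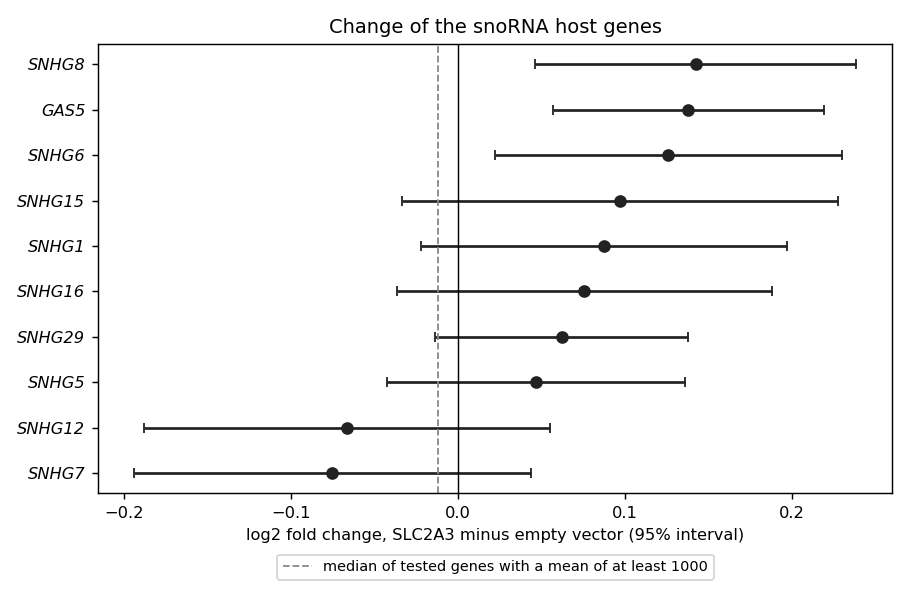
Fitted log2 fold change of each snoRNA host gene, SLC2A3 minus empty vector, on the horizontal axis. Points are estimates, bars are 95% intervals from limma before adjustment, and the dashed line is the median of tested genes with a mean of at least 1000 normalised reads. The intervals of SNHG8, GAS5 and SNHG6 lie above 0, and the other 7 include 0.

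The upper ends of the 95% intervals, before adjustment, were at most 0.24 on the log2 scale for any member, which is 1.18-fold, and the lower ends were at least -0.19. The median log2 fold change of the 10 members was 0.08, against 0.00137 for all tested genes and -0.01 for those with a mean of at least 1000 normalised reads. Of those abundant genes 44.4% had a positive difference, as did 8 of the 10 members (80%). Their 5% and 95% points were -0.18 and 0.15, a range that includes every member.

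Summed over the 10 members, the libraries held 57603, 55580 and 56177 normalised reads with SLC2A3, against 53923, 53710 and 52593 with empty vector. The groups did not overlap, although GAS5 and SNHG29 supply most of the sum. The members' values were not spread evenly over libraries. SLC2A3 replicate 1 was the highest of the 6 libraries for 5 members, and empty vector replicate 3 was the lowest for 5. The small structured RNA RN7SL1, a component of the signal recognition particle, also differed between libraries, at 2233, 6026 and 1922 normalised reads with SLC2A3, against 538, 1812 and 705 with empty vector (log2 fold change 1.74, limma adjusted p = 0.000861). Replicate 2 was its highest library in each group. Without both of those libraries the median log2 fold change of the members was 0.11.

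**Figure D3:**
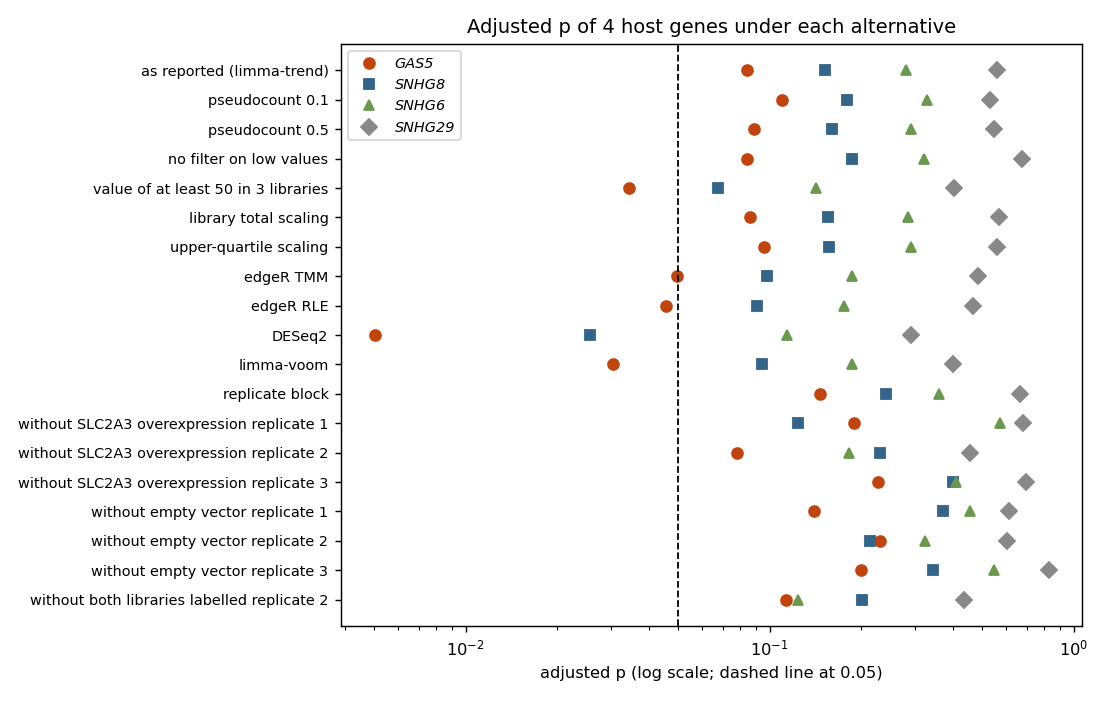
Adjusted p of GAS5, SNHG8, SNHG6 and SNHG29 (horizontal axis, log scale) in the reported fit and under each of the 18 alternatives (rows). The dashed line is the threshold of 0.05. GAS5 lies below it under 5 alternatives, SNHG8 under DESeq2 alone, and SNHG6 and SNHG29 under none, and no fit that leaves out a library brings any of the 4 below it.

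Levels were compared between members per kilobase of merged GENCODE 29 exons, which counts every annotated exon and so understates genes with many rarely used ones. SNHG29 was the highest, at 4812 ± 95.9 normalised reads per kilobase with SLC2A3 and 4610 ± 95.9 with empty vector (SD, n = 3 each). SNHG8 followed at 4611 ± 100.1 with SLC2A3 and 4178 ± 47.5 with empty vector, and the 6 libraries of these genes overlapped. GAS5 (3328 with SLC2A3 and 3025 with empty vector) and SNHG6 (3217 with SLC2A3 and 2945 with empty vector) came next and also overlapped, then SNHG5 (2326 with SLC2A3 and 2252 with empty vector), which stood apart from its neighbours in the order. The other 5 were lower. SNHG1 had 688 with SLC2A3 and 648 with empty vector and stood apart from the next. Next were SNHG16 (602 with SLC2A3 and 572 with empty vector), SNHG7 (509 with SLC2A3 and 536 with empty vector) and SNHG15 (498 with SLC2A3 and 466 with empty vector), each overlapping its neighbour within this run. SNHG12 was the lowest (385 with SLC2A3 and 403 with empty vector) and apart from SNHG15. The first 5 in the order thus lay well above the others, with no library of one set within the range of the other.

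The snoRNAs themselves could hardly be read from these data. From GENCODE 29, 26 snoRNA entries on the same strand inside a member were looked up, and 24 of them were listed at 0 in all 6 libraries. None of the 26 lies in GAS5, so its snoRNAs were not examined. SNORD29, SNORD31 and SNORD50A are also missing, and SNORA16A and SNORA17B are entered more than once. The 26 entries therefore do not cover the 37 of RefSeq. Over all 942 snoRNA genes of that annotation present in the data, 634 were listed at 0 throughout. Abundant small noncoding RNAs such as RMRP, RPPH1 and RN7SK were also listed at 0, so a listing at 0 here is not a measured absence. The exceptions were SNORD99 in SNHG12 and SNORD1B in SNHG16. SNORD99 had 56.6, 45.1 and 64.1 normalised reads with SLC2A3, against 31.6, 48.0 and 62.1 with empty vector, with overlapping groups (limma adjusted p = 0.814). SNORD1B, shown above, had 10.2, 12.5 and 20.3 with SLC2A3, against 9.17, 6 and 14.0 with empty vector, again overlapping (limma adjusted p = 0.785). Gene-level counting does not tell such reads from those of unspliced host RNA.

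Several members overlap or lie close to genes on the opposite strand. The library kit keeps strand, but whether counting used it is not stated, so reads of overlapping pairs cannot be told apart with certainty. ZBTB37, a zinc finger gene that overlaps GAS5 and starts 800 bases from its start, had 886, 868 and 952 normalised reads with SLC2A3, against 1002, 936 and 939 with empty vector, with overlapping groups and a lower mean where GAS5 had a higher one (limma adjusted p = 0.716). SLC3A2, a subunit of amino acid transporters that starts 188 bases from SNHG1, had 4550, 4421 and 4423 normalised reads with SLC2A3, against 4093, 4424 and 4265 with empty vector (limma adjusted p = 0.653). AC015802.4, which starts 83 bases from SNHG16, had 26.0, 24.9 and 20.3 with SLC2A3, against 22.4, 22 and 34.0 with empty vector (limma adjusted p = 0.952). The next 2 genes were picked from the overlapping neighbours after their values were seen. AC093484.4, a noncoding gene that overlaps SNHG29, had 161, 152 and 151 with SLC2A3, against 102, 117 and 135 with empty vector. Its groups did not overlap, and it was not called (limma adjusted p = 0.304). TRNAU1AP, which overlaps SNHG12 only where both genes end and is needed for selenocysteine incorporation, had 753, 740 and 743 with SLC2A3, against 766, 782 and 724 with empty vector (limma adjusted p = 0.956). The other overlapping neighbours were GAS5-AS1, MCMDC2, FAM69B, LRRC75A and AC015802.6. None of them was called by limma, and only MCMDC2, which overlaps SNHG6, had groups that did not overlap.

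The other host genes and the machinery around them were set beside the members. Of 22 other noncoding hosts, 21 were tested and SNHG18 was listed at 0. Among the 22 is SNHG32, which GENCODE 29 lists as the protein-coding gene C6orf48. None of the genes each tool tested was called by limma, edgeR, limma-voom or DESeq2, and 4 (19%) had an unadjusted limma p under 0.05, against the 11.8% and 26.5% given above. edgeR and limma-voom tested 18 of the 21, and DESeq2 gave 13 an adjusted p. Of the 21, 17 had a positive difference, with a median log2 fold change of 0.06. SNHG3 had 5312, 5051 and 5434 normalised reads with SLC2A3, against 4929, 5266 and 5006 with empty vector (limma adjusted p = 0.735). SNHG17 had 2957, 2836 and 2782 with SLC2A3, against 2620, 2577 and 2561 with empty vector, groups that did not overlap (log2 fold change 0.14, limma adjusted p = 0.210). ZFAS1, the antisense host of SNORD12, had 2254, 1999 and 2115 with SLC2A3, against 2019, 1818 and 1854 with empty vector, with 1 library crossing (log2 fold change 0.16, limma adjusted p = 0.236).

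Protein-coding hosts, most of them ribosomal protein genes that also carry a pyrimidine tract, included called genes. Of 44 tested, limma called 8 higher and 1 lower, with a median log2 fold change of 0.10. For comparison, 2.22% of tested genes with a mean of at least 1000 normalised reads were called higher and 3.12% lower. Unadjusted limma p was under 0.05 for 31 of the 44 hosts (70.5%), against 26.5% of genes with such a mean. Those genes were not matched to the hosts in level, and many hosts lie far above 1000. Precision also differs between hosts and members. RPS24 was called at a log2 fold change of 0.13 (SE 0.033), while GAS5 at 0.14 (SE 0.040) and SNHG8 at 0.14 (SE 0.047) were not. A larger share called is therefore not a larger change. The number of coding hosts called higher was 15 with edgeR, 20 with limma-voom and 21 with DESeq2. With limma and a library left out it ran from 2 (without empty vector replicate 3) to 17 (without empty vector replicate 2). Without SLC2A3 replicate 3 it was 3, and without SLC2A3 replicate 1 it was 5. RPL23A, a protein of the large ribosomal subunit, rose to 14553 ± 276 normalised reads with SLC2A3, against 12673 ± 525 with empty vector (n = 3 each, log2 fold change 0.20, limma adjusted p = 0.00522). HSPA8, the constitutive cytosolic HSP70 chaperone and host of SNORD14 snoRNAs, rose to 42055 ± 1066 with SLC2A3, against 37232 ± 855 with empty vector (log2 fold change 0.18, limma adjusted p = 0.00416). RPL21 rose by a log2 change of 0.18 (limma adjusted p = 0.00769) and RPL13 by 0.17 (limma adjusted p = 0.00648). PRRC2A, the host of SNORA38, fell to 24705 ± 2157 with SLC2A3, against 29310 ± 2337 with empty vector (log2 fold change -0.25, limma adjusted p = 0.00717). The most abundant host, the elongation factor gene EEF2, had a log2 fold change of 0.01 (limma adjusted p = 0.931), and RPL13A one of 0.11 (limma adjusted p = 0.0748). RPL23A and RPL21 were not called without empty vector replicate 3, HSPA8 without SLC2A3 replicate 3, and PRRC2A was lost on leaving out any of 3 libraries (SLC2A3 replicates 2 and 3 and empty vector replicate 3), with DESeq2 and with a pseudocount of 0.1. RPL13 was called with any 1 library left out. Of the 8 called higher, 2 were still called without empty vector replicate 3, 3 without SLC2A3 replicate 3, and 7 with a replicate block. The noncoding and coding hosts were not tested against each other.

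**Figure D4:**
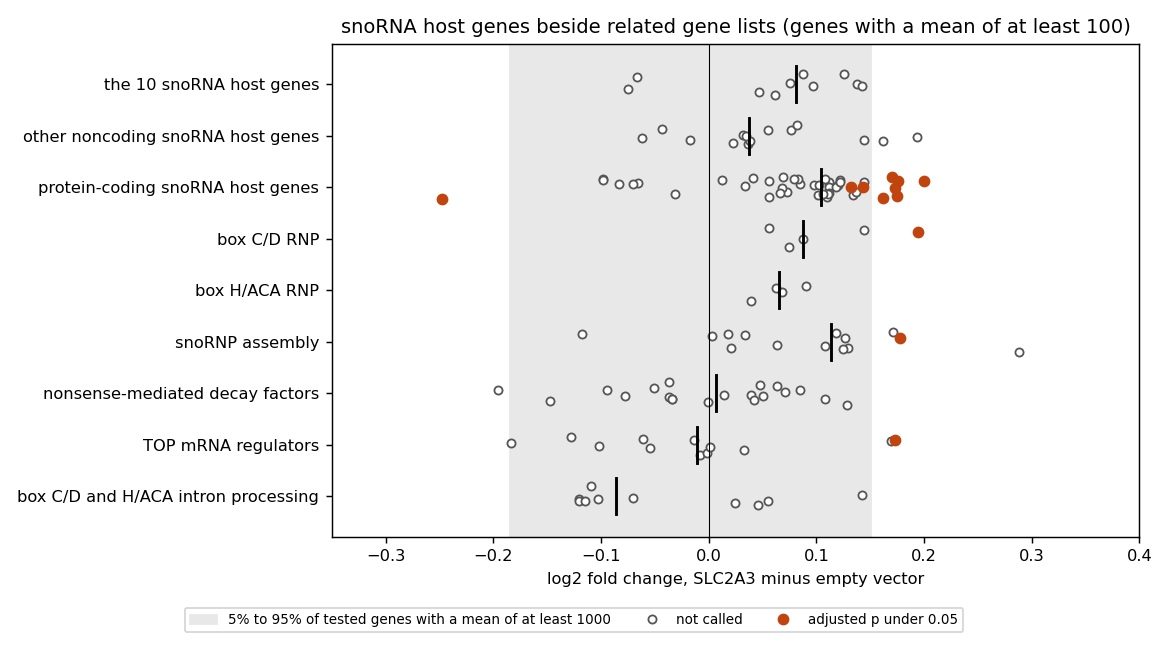
Log2 fold change, SLC2A3 minus empty vector, of the 10 snoRNA host genes (top) and of related gene lists, for genes averaging at least 100 normalised reads. Points are genes, filled where the limma adjusted p is under 0.05, black bars are medians of the plotted genes, and the grey band runs from the 5% to the 95% point of tested genes with a mean of at least 1000. Filled points lie among the protein-coding hosts, the box C/D proteins, the assembly factors and the TOP mRNA regulators, and none among the 10 members.

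The proteins that bind snoRNAs had positive differences throughout, most of them not called. Of 5 box C/D proteins, 2 (40%) had an unadjusted limma p under 0.05, against 26.5% of abundant genes. Of the 5, 1 was called higher, against 2.22% of abundant genes: FBL, the methyltransferase fibrillarin. It had 15543, 14886 and 14651 normalised reads with SLC2A3, against 12868, 13961 and 12601 with empty vector, groups that did not overlap (log2 fold change 0.19, limma adjusted p = 0.0108). The call was lost on leaving out any of 4 libraries, SLC2A3 replicates 1 and 3 and empty vector replicates 1 and 3. NOP56 (log2 fold change 0.06, limma adjusted p = 0.727), itself a snoRNA host, and SNU13 (0.09, adjusted p = 0.457) were not called. Of the 4 box H/ACA proteins none was called by limma, edgeR, limma-voom or DESeq2, and 0 had an unadjusted p under 0.05. The pseudouridine synthase DKC1 had a log2 fold change of 0.07 (limma adjusted p = 0.604), NHP2 one of 0.06 and NOP10 one of 0.04. The groups of these 3 genes did not overlap, although the gap for NOP10 was only 2.94 normalised reads. Groups apart with SLC2A3 higher were found for 12.7% of tested genes with a mean of at least 1000 normalised reads.

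Of 14 factors that assemble snoRNA-protein particles, 4 (28.6%) had an unadjusted limma p under 0.05, against 11.8% of all tested genes and 26.5% of abundant ones. Of the 14, 1 was called higher, against 0.692% of all tested genes and 2.22% of abundant ones: RUVBL1, an ATPase of the R2TP complex. It stood at 5500 ± 130 normalised reads with SLC2A3 and 4864 ± 124 with empty vector (n = 3 each, log2 fold change 0.18, limma adjusted p = 0.0403). It was not called with a replicate block, with a pseudocount of 0.1 or on leaving out any of 4 libraries, SLC2A3 replicates 2 and 3 and empty vector replicates 1 and 3 (adjusted p up to 0.223). Its partner RUVBL2 had a log2 fold change of 0.13 (limma adjusted p = 0.124), the nucleolar protein NOLC1 one of 0.06 and PIH1D1 one below 0.01 in size, and the median of the 14 was 0.11. DESeq2 called RUVBL2 as well. Of 20 factors of nonsense-mediated decay, the pathway that degrades the spliced RNA of several host genes, none was called by limma, edgeR, limma-voom or DESeq2. Of these 20, 3 (15%) had an unadjusted limma p under 0.05, against 11.8% of all tested genes and 26.5% of abundant ones. Their median log2 fold change was 0.01, with 10 positive and 10 negative. Decay of the members' RNA was not measured. UPF1, the central helicase of the pathway, had 4976, 4310 and 4584 normalised reads with SLC2A3, against 5134, 5037 and 5168 with empty vector, groups that did not overlap (log2 fold change -0.15, limma adjusted p = 0.170). UPF1 was picked out of this list after its values were seen. Of the 3 most abundant of the 20, EIF4A3 had a log2 fold change of 0.04, UPF2 one of 0.05 and SMG5 one below 0.01 in size.

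Of 12 regulators of messenger RNAs with a terminal pyrimidine tract (TOP mRNAs), 5 (41.7%) had an unadjusted limma p under 0.05, against 26.5% of abundant genes. Of the 12, 1 was called higher, against 2.22% of abundant genes: CNBP, a zinc finger protein that binds nucleic acids. It had 17777, 17933 and 18843 normalised reads with SLC2A3, against 16186, 16815 and 15409 with empty vector (log2 fold change 0.17, limma adjusted p = 0.0178), and was not called without SLC2A3 replicate 3, empty vector replicate 1 or empty vector replicate 3. LARP1, which binds the tract itself, had a log2 fold change of -0.01 (limma adjusted p = 0.971), and PABPC1 one below 0.01 in size. The median of the 12 was -0.01. With edgeR, limma-voom and DESeq2, 2 of the 12 were called higher, CNBP and EIF4EBP1, an inhibitor of translation initiation named here after its values were seen. Of the 12, 8 had a negative difference. MTOR, the kinase of the mTOR complexes and the gene with the largest difference in size, had a log2 fold change of -0.18 (limma adjusted p = 0.129), with overlapping groups. The mTORC1 subunit gene RPTOR had one of -0.13 (limma adjusted p = 0.415), with every SLC2A3 library below every empty vector library. Both were also chosen after their values were seen. The last list held 10 RNA-processing genes, most but not all of them for the release and trimming of intronic snoRNAs. None of the 10 was called by limma, edgeR, limma-voom or DESeq2, and their median was -0.09. Of the 10, 3 (30%) had an unadjusted limma p under 0.05, near the 26.5% of abundant genes. The exonuclease XRN2 had a log2 fold change of -0.07 (limma adjusted p = 0.695) the helicase MTREX one of 0.06 and NOP53 one of 0.14 (adjusted p = 0.176).

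Genes most like the members across libraries were found by Pearson's r between log2(normalised reads + 1) and the members' mean centred log2 value over the 6 libraries, among 5785 genes with a mean of at least 1000 normalised reads outside the lists above. The closest were PPAN (r = 0.994), a nucleolar factor of large ribosomal subunit assembly, RPL6 (0.993), a large-subunit ribosomal protein, SNRPD2 (0.991), a core protein of spliceosomal particles, EMG1 (0.991), a methyltransferase acting on ribosomal RNA, and LIMD2 (0.990). With 6 points and so many candidates, high values of r arise readily, and the points share the group difference and the library scaling. PPAN, the nearest, had 1137, 1067 and 1028 normalised reads with SLC2A3, against 940, 992 and 887 with empty vector. Its groups did not overlap, and none of the 5 genes was called by limma (PPAN adjusted p = 0.215).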

How the data were processed

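The authors deposited 1 value for each of 60660 gene IDs per library, a normalised signal. From the values it is the read count divided by 1 factor per library: 100% were whole multiples of the library's smallest positive value within 0.001 reads. In every library this factor equalled the DESeq2 size factor computed from the recovered reads. Per the submitters' processing notes BWA, TopHat2 and hg38 were used, and per the labels' protocols libraries came from Trizol RNA and the NEBNext Ultra II Directional kit. Gene annotation, the counter and the use of strand are not given in the sources used here. Of the IDs, 60641 were given a symbol.

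log2(value + 1) was fitted by limma-trend (limma 3.58.1, R 4.3.3) for the 28015 genes that reached 1 in 3 or more libraries. Group was the model's single term, and p-values were adjusted by Benjamini-Hochberg. Fold changes on this scale understate low genes. SE and 95% intervals are limma's, and SD is over 3 libraries. edgeR 4.0.16, DESeq2 1.42.0 and limma-voom, run on the recovered reads, were alternatives, with other pseudocounts, filters and scalings, a replicate block and libraries left out. The functions were tested on simulated data. Replicates differed by more than sampling noise (chi-square per gene 3.50 to 6.78), so all 6 were kept. The members and gene lists were chosen with earlier results of these data known. Named genes were the members, SLC2A3 and, from each list, up to 4 called genes by size of change and 3 by level, and the 5 genes most like the members, with neighbours starting within 1000 bases on the opposite strand. Sequences came from GENCODE 29 on GRCh38, and snoRNA classes from names in RefSeq (GRCh38.p14).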

Additional observations from a re-analysis of the deposited data

How the results depend on the processing

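Over the 10 members and the 18 alternatives, all 180 log2 fold changes kept the reported direction, and 6 were called. Those 180 are not independent checks, since every alternative reuses the same libraries. The filters on low values and the replicate block cannot change a member's log2 fold change, and the pseudocounts hardly move it at these levels. For these settings the kept direction was fixed in advance. No member was called by limma in the reported fit. The number called higher was 1 with a value of at least 50 in 3 libraries required, 1 with edgeR and TMM factors, 1 with edgeR and RLE factors, 1 with limma-voom and 2 with DESeq2. It was 0 with each library left out in turn. The count of genes called over all tested was 418 as reported, 739 with a value of at least 50 required and 784 with DESeq2. It ran from 188 to 466 with a library left out, at its lowest without SLC2A3 overexpression replicate 3. Leaving out empty vector replicate 3 gave 221, and empty vector replicate 1 gave 264. The members' median log2 fold change was 0.0557 to 0.103 with a library left out. Without both libraries labelled replicate 2 it was 0.11, and 516 genes were called. Scalings moved the median of genes with a mean of at least 1000 by far less than any member's difference. The DESeq2 fit uses the scaling of the deposited values, so it is no test of another scaling.

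Replicate numbers recur in both groups, but deviations of same-numbered libraries correlated at -0.109, 0.011 and -0.001 over 11730 genes, so the numbers were not taken to pair the samples. With the replicate block, 363 genes were called, the members called numbered 0 and their median was 0.08.

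With 3 libraries a group, GAS5 and SNHG8 were called by some of these tests and not by others, the other 8 members by none, and a p above the threshold does not show that levels were equal.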
